A study of Mus musculus with 4 samples.

Results

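Genes that encode secreted factors known for roles in tissue repair were followed across the immune cells of the injured mouse spinal cord. They were Igf1, Pdgfa, Pdgfb, Vegfa, Osm, Hbegf, Areg, Gdf15, Grn and Bdnf, chosen by symbol, and they made up 10 of the 31053 genes in the count tables. C57BL/6 mice of both sexes received a contusion at the tenth thoracic level or, as sham, a laminectomy alone. CD45+ cells were sorted from the cord around that level and sequenced on a 10× platform, with 1 library each for the uninjured cord dissociated by the standard protocol (standard sham), the uninjured cord dissociated with actinomycin D (ActD sham), the injured cord at 3 days post-injury (3 dpi) and the injured cord at 14 dpi. Both injured libraries were made with ActD, an inhibitor of transcription that limits the induction of immediate early genes (IEGs) while tissue is being dissociated. The study's methods divide the mice between the sham and the injured groups, and do not say how many went into each of the 2 sham libraries. The question was which class of immune cell held the transcripts of each factor without injury, at 3 dpi and at 14 dpi.

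These factors act on different cells of the lesion. Igf1 is a trophic factor for neurons and oligodendrocyte-lineage cells, the PDGF chains recruit pericytes, fibroblasts and oligodendrocyte precursors, and Vegfa drives the growth of vessels. Oncostatin M (Osm) is a cytokine of the IL-6 family that acts on stromal cells and astrocytes, Hbegf and Areg are ligands of the EGF receptor that are shed from the cell surface, Gdf15 is a stress-induced member of the TGF-beta superfamily, progranulin (Grn) regulates lysosomes and inflammation, and Bdnf is a neurotrophin. The transcript alone does not show how much of the protein was secreted.

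The cells kept numbered 5035 in the standard sham, 2135 in the ActD sham, 8214 at 3 dpi and 9078 at 14 dpi, with 25538902 to 94192541 UMIs per library and a median of 7424 to 9600 UMIs per cell. Each class below was named from marker genes of a cluster and stands for cells like that type. Microglia numbered 3011, 1684, 713 and 4294 cells in that order of libraries, and macrophages 131, 140, 3965 and 275. All 10 microglial markers were higher in microglia than in the other cells of every library. The sham macrophages lay in clusters led by Mrc1, Pf4 or MHC class II genes. Those at 3 dpi lay mostly in clusters with Arg1, Thbs1 or Gpnmb among the leading genes. A further cluster of 94 cells at 3 dpi was led by the interferon-induced genes Rsad2 and Ifit3. Those at 14 dpi all lay in 1 cluster led by Mrc1, Pf4, Gpnmb, Ms4a7 and Fabp4. The macrophage class was thus made up differently in the sham, 3 dpi and 14 dpi libraries, and its ratios between them do not compare like clusters. A small class of vascular, stromal or glial cells, which a CD45 sort should exclude, held 24 to 48 cells in the 3 ActD libraries. Any pair of libraries shared 3 to 36 cell barcodes.

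Some libraries stood apart in ways that bear on the factors below. The summed level of 14 IEGs in microglia was 40542 counts-per-million (CPM) in the standard sham, 817 CPM in the ActD sham, 5015 CPM at 3 dpi and 674 CPM at 14 dpi. In macrophages it was 30729, 1294, 6254 and 1146 CPM in that order of libraries. Monocytes had 8420, 2633, 9740 and 3842 CPM, and neutrophils 6704, 2010, 17860 and 3630 CPM. Thus the 3 dpi library had a higher IEG level than the ActD sham although both were dissociated with ActD, with 13 of the 14 genes at least 2-fold higher in its microglia, against 14.1% of all genes. Its neutrophils were also shallow, with a median of 2344 UMIs per cell, against 5979 at 14 dpi and 15187 in the ActD sham. The part of the IEG level in the factor levels below was not tested in any class.

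For each factor, the CPM (counts-per-million) of a class is the number of UMIs of the gene scaled to the UMIs of all genes in the cells of that class, and the share of a class is the percentage of all UMIs of the gene in the library that its cells held. CPM values and shares are given with exact Poisson and binomial 95% intervals and ratios with an exact conditional interval. They cover counting error only. Since each condition was a single library without a replicate, the spread between animals is unknown, and no difference between conditions was tested.

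The class that held the most transcript moved with the cells that filled each library. In the uninjured cord, microglia held the largest share of 6 of the 9 factors with at least 20 UMIs in the standard sham and of 5 of 8 in the ActD sham. Macrophages held the largest share of 7 of 9 factors at 3 dpi, and microglia of 6 of 9 at 14 dpi. These counts were not above the background, since the same class led 70.5% of all genes with at least 20 UMIs in the standard sham, 87.8% in the ActD sham, 81.6% at 3 dpi and 79.9% at 14 dpi. Some factors departed from the leading class. Igf1 was led by macrophages in both sham libraries, when microglia led most genes. Vegfa and Osm were led by neutrophils in the ActD sham and at 14 dpi, Areg by T cells at 14 dpi, Pdgfb by microglia at 3 dpi and Hbegf by the vascular, stromal or glial class at 3 dpi.

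**Figure D1:**
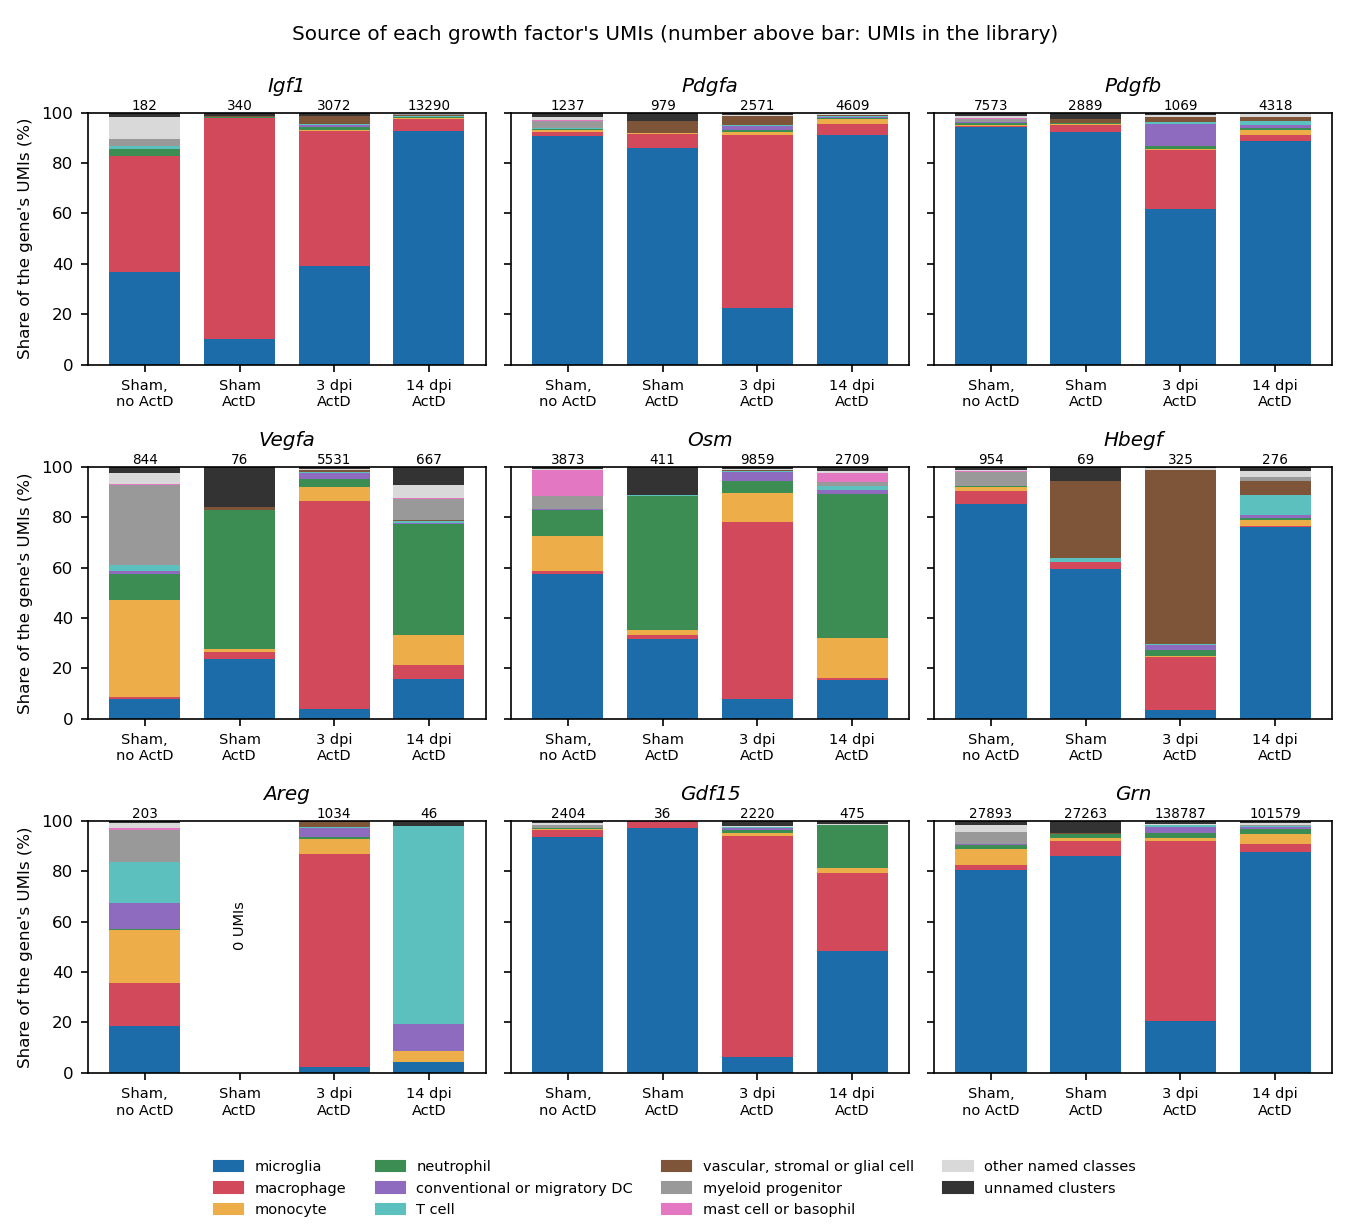
Share of the UMIs of each factor (percent, y axis) held by each cell class (colours), with 1 stacked bar per library and the UMIs of the gene above it; Areg had 0 UMIs in the ActD sham and Bdnf is not drawn. Most bars are led by microglia in the sham and 14 dpi libraries and by macrophages at 3 dpi. Igf1, Vegfa and Areg in the standard sham and Igf1, Vegfa and Osm in the ActD sham depart from that pattern. So do Pdgfb and Hbegf at 3 dpi and Vegfa, Osm and Areg at 14 dpi.

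Igf1 (chromosome 10, 87858265 to 87937042, plus strand; this and the other positions are GRCm38 with GENCODE M21) encodes insulin-like growth factor 1 and its main source differed between libraries. It had 182 UMIs in the standard sham, 340 in the ActD sham, 3072 at 3 dpi and 13290 at 14 dpi. In microglia its level was 3.09 CPM (2.39 to 3.92) in the standard sham, 1.97 CPM (1.36 to 2.75) in the ActD sham, 69.4 CPM (65.6 to 73.5) at 3 dpi and 245.9 CPM (241.6 to 250.3) at 14 dpi. The microglial level was thus lowest in the uninjured cord and highest at 14 dpi, 35.3-fold (25.1 to 51.1) above the ActD sham at 3 dpi and 124.9-fold (89.3 to 180.4) at 14 dpi. Of the 34 microglial UMIs in the ActD sham, 22 were in a cluster of 39 cells, at 30.4 CPM, led by the basophil genes Prss34 and Mcpt8. The next leading genes of that cluster were Spp1, Lpl and Ccl3, and by its markers it was named microglia. Spp1 and Lpl were also leading genes of the 14 dpi microglial cluster with the most Igf1. Without the cluster of 39 cells the level in the ActD sham was 0.725 CPM (0.375 to 1.27). The ratios to it were then 95.7 (54.6 to 185.7) at 3 dpi and 339 (194 to 656) at 14 dpi. In macrophages it was 90.8 CPM (72.4 to 112.4) and 186.6 CPM (166.1 to 209.0) in the sham libraries, 28.6 CPM (27.2 to 30.02) at 3 dpi and 209.5 CPM (193.2 to 226.9) at 14 dpi. The macrophage class was therefore 6.53-fold lower at 3 dpi than in the ActD sham, where it was made of other clusters, or 3.496-fold (2.95 to 4.12) lower without 1 cell described next. It was 7.32-fold (6.66 to 8.04) higher at 14 dpi, where it was the cluster led by Mrc1 and Pf4, than at 3 dpi.

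Macrophages held 87.9% (84.0 to 91.2) of its UMIs in the ActD sham although they made up 6.27% of all UMIs there. The lead of macrophages in the standard sham, with 46.2% (38.8 to 53.7), was not separated by counting error from the 36.8% (29.8 to 44.3) of microglia. At 3 dpi macrophages held 53.4% and microglia 39.3%, although microglia had the higher CPM, and at 14 dpi microglia held 92.8% (92.4 to 93.3). Of the 1640 macrophage UMIs at 3 dpi, 1146 were in a cluster of 1106 cells led by Gpnmb and Fabp5, at 56.5 CPM. A macrophage cluster of 217 cells had 55.2 CPM from 20 UMIs, and those of 1192, 809 and 194 cells had 12.6, 14.1 and 8.56 CPM. One cell decided much of the ActD sham value. It held 141 of the 299 macrophage UMIs, had 177 UMIs of Dcn and 163 of Col1a2, which encode matrix proteins of fibroblasts, and none of Ptprc (CD45), Mrc1 or Pf4. Without it the macrophage level had an interval of 85.0 to 116.9 CPM, and the share was 79.4%. The lead was lost when cells were named one by one, with a looser filter of cells and with Seurat integration. The vascular, stromal or glial class then led with 44.4%, 45.0% and 50.3%, and macrophages held 36.2%, 43.5% and 36.2%.

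Among microglia at 14 dpi the Igf1 level differed between clusters. In a cluster of 1280 cells with Lpl, Spp1, Plxdc2 and Ctsd among its leading genes it was 381 CPM, and in one of 1105 cells with Apoc1, C1qa, C1qc and Spp1 among them it was 262 CPM. In the cluster of 1076 cells led by Sparc and P2ry12, genes of resting microglia, it was 37.4 CPM. In the standard sham, a microglial cluster of 102 cells led by Gpr84, Spp1, Ctsd, Il1a and Lpl reached 42.1 CPM. Igf1 itself and the other factors were left out of the genes used for clustering.

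The change was also seen in the share of cells with an Igf1 UMI after each cell had been thinned to 1000 UMIs. It was 0.239% of microglia in the ActD sham, 5.20% at 3 dpi and 16.6% at 14 dpi, and before thinning 1.01%, 48.3% and 56.5% at median depths of 9328, 21982 and 10698 UMIs. In B cells, which should lack the gene, the thinned share was 0 of 64 cells in the ActD sham, which allows a share of up to 4.69%, 0.741% at 3 dpi and 0.752% at 14 dpi, at median depths of 5810, 2522 and 3449 UMIs. The microglia of the injured cord thus lay above the B cells of their own libraries. In the ActD sham the 64 B cells were too few to place the microglial share against a background. Thinning left out 9, 1 and 7 microglia with fewer UMIs in the ActD sham, 3 dpi and 14 dpi libraries.

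Pdgfa (chromosome 5, 138976014 to 138997370, minus strand), the PDGF chain that signals through the alpha receptor, was held by microglia outside 3 dpi. Its microglial level was 51.8 CPM (48.8 to 54.9) in the standard sham, 48.8 CPM (45.6 to 52.2) in the ActD sham, 33.2 CPM (30.6 to 36.1) at 3 dpi and 83.6 CPM (81.1 to 86.2) at 14 dpi. The level did not differ beyond counting error between the sham libraries, and was lower at 3 dpi and higher at 14 dpi. A microglial cluster of 24 cells held 107 of the 843 ActD sham UMIs. With it left out of that library only, the standard sham was 1.19-fold (1.08 to 1.31) higher. With the cluster of 39 cells left out instead, it was 1.12-fold (1.02 to 1.23) higher. Microglia held 90.8% and 86.1% of its UMIs in the sham libraries and 91.0% at 14 dpi. At 3 dpi macrophages held 68.8% (67.0 to 70.6), with 30.9 CPM against 33.2 CPM in microglia, and they made up 62.5% of the UMIs of all genes. The macrophage level was 32.5 CPM in the ActD sham and 74.0 CPM at 14 dpi. The cluster of 1280 cells at 14 dpi that had the most Igf1 also had 113.9 CPM of Pdgfa, and a cluster of 69 microglia led by Ccl12 and Gpr84 had 125.2 CPM.

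Pdgfb (chromosome 15, 79995874 to 80014977, minus strand), the chain that recruits pericytes through the beta receptor, had its highest microglial level in the standard sham and its lowest at 3 dpi. Its microglial level was 329.0 CPM (321.5 to 336.8) in the standard sham, 154.2 CPM (148.4 to 160.2) in the ActD sham, 38.0 CPM (35.1 to 41.0) at 3 dpi and 76.3 CPM (73.9 to 78.7) at 14 dpi. All 4 levels were apart from each other beyond counting error, with the 3 dpi level 4.06-fold (3.73 to 4.43) and the 14 dpi level 2.02-fold (1.92 to 2.13) lower than in the ActD sham. Pdgfb was the factor that microglia still led at 3 dpi, with 61.7% (58.8 to 64.7) of its UMIs, although they made up 18.9% of all UMIs. Macrophages held 23.5% at 3 dpi with a level of 4.38 CPM (3.85 to 4.95), which was 11.98-fold (9.24 to 15.4) lower than the 52.4 CPM (41.8 to 64.9) of the macrophages of the ActD sham. Dendritic cells held 8.61%. At 14 dpi the macrophage level was 40.5 CPM, and a cluster of 40 cells led by the endothelial gene Cldn5 had 162.4 CPM.

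**Figure D2:**
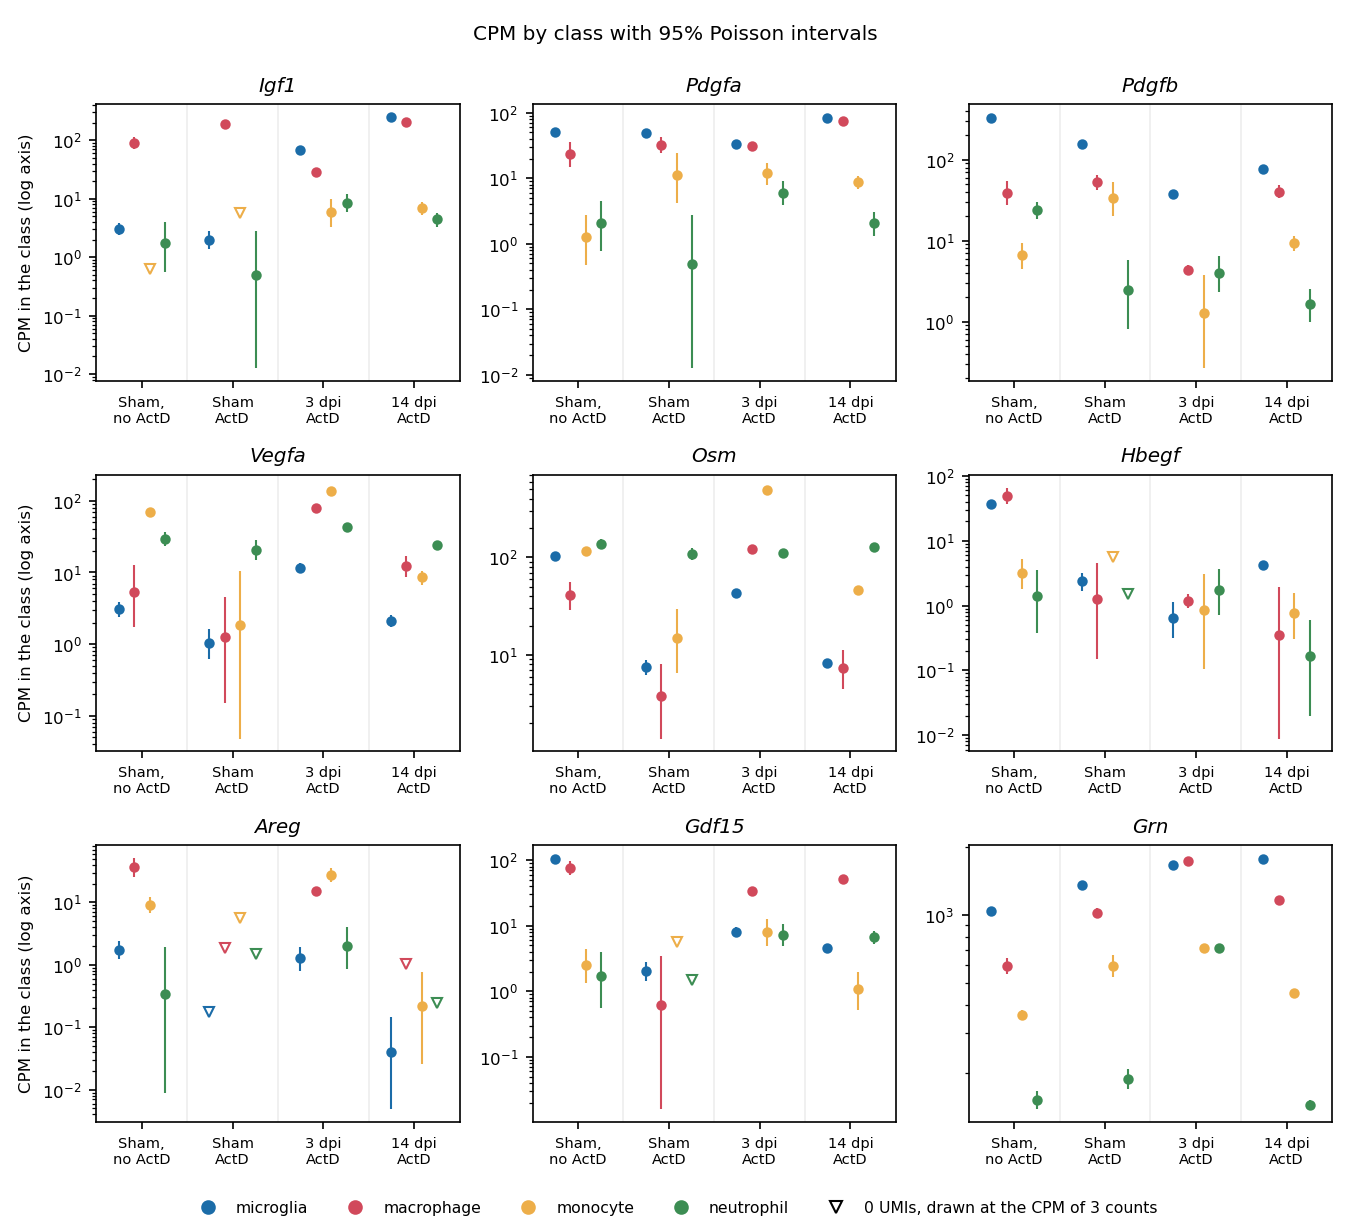
Level of each factor (CPM, log axis that differs between panels) in microglia, macrophages, monocytes and neutrophils of the 4 libraries, with vertical bars for the exact Poisson 95% interval and open triangles at the CPM of 3 counts where there was no UMI. Igf1 in microglia lies at 1.97 CPM in the ActD sham and at 245.9 CPM at 14 dpi, Pdgfb in microglia is lowest at 3 dpi, and Vegfa and Osm peak at 3 dpi in monocytes and macrophages.

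Vegfa (chromosome 17, 46016993 to 46032369, minus strand), the main angiogenic factor of the VEGF family, had 76 UMIs in the ActD sham and 5531 at 3 dpi. Over all cells it was at 17.6 CPM in the standard sham, 2.98 CPM in the ActD sham, 60.3 CPM at 3 dpi and 7.08 CPM at 14 dpi. At 3 dpi it thus stood above the other libraries, 20.3-fold (16.2 to 25.7) over the ActD sham and 8.51-fold (7.85 to 9.23) over 14 dpi. Macrophages held 82.7% (81.7 to 83.7) of the UMIs at 3 dpi, at 79.8 CPM (77.5 to 82.1). The level was higher in the monocytes of that library, at 137.5 CPM (122.9 to 153.3), and lower in neutrophils, at 42.8 CPM (36.6 to 49.7), and microglia, at 11.6 CPM (10.1 to 13.3). As classes, monocytes and macrophages were therefore both above microglia at 3 dpi, but the monocyte clusters differed. One of 223 cells led by Thbs1, Vcan and F10 held 318 Vegfa UMIs, at 177.1 CPM. Another of 84 cells, led by Plac8 and Ly6c2, held 4, at 7.32 CPM, which was not above microglia. Neutrophils led in the ActD sham with 55.3% (43.4 to 66.7) and at 14 dpi with 44.4% (40.6 to 48.2), at 20.8 CPM and 24.2 CPM, which did not differ beyond counting error (ratio 1.17, 0.844 to 1.66). In the standard sham the monocytes held 38.7% at 69.8 CPM and myeloid progenitors 31.9% at 29.2 CPM. Progenitors led instead when cells were named one by one (25.5% against 24.6%) and with a looser filter of cells (28% against 17.6%). They also led with a stricter filter (29.4% against 25.5%).

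Within the 3 dpi macrophages, Vegfa ranged over the clusters. It was 209.5 CPM in a cluster of 194 cells led by Thbs1, F10, Ccl7, Arg1 and Ccl6, 127.2 CPM in one of 809 cells led by Arg1, Pf4, Ccl24, Thbs1 and Ccl6, and 92.1 CPM in one of 1192 cells led by Pf4, Arg1 and Thbs1. It was lower, at 39.8 CPM, in a cluster of 1106 cells led by Gpnmb and Fabp5, and lowest, at 21.1 CPM, in one of 80 cells led by Arg1 and Lyz2, and the other clusters had 63.5 to 95.2 CPM. Arg1 encodes arginase, a marker of alternative activation, and Thbs1 an inhibitor of vessel growth. The gene was spread over many cells, since 1949 of the 3965 macrophages had a UMI. After thinning to 1000 UMIs, 7.93% of macrophages had one, against 2.96% of B cells, and 49.2% and 5.93% before thinning at median depths of 13670 and 2522 UMIs.

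Osm (chromosome 11, 4236420 to 4241026, plus strand) encodes oncostatin M, and its level over all neutrophils varied little between libraries. Their clusters were unlike. Those of the ActD sham lay in a cluster led by Ltf and Ngp, and most at 3 dpi in one led by S100a9, S100a8 and G0s2. At 14 dpi the neutrophil clusters ranged from 7.26 to 409.2 CPM. Over all neutrophils the level was 138.7 CPM (125.4 to 152.9) in the standard sham, 108.2 CPM (94.4 to 123.5) in the ActD sham, 112.0 CPM (101.9 to 123.0) at 3 dpi and 127.0 CPM (120.7 to 133.4) at 14 dpi. These levels spanned 1.28-fold, and the 3 dpi level did not differ from that of the ActD sham beyond counting error (ratio 1.04, 0.879 to 1.22). Macrophages, in contrast, had 41.1, 3.75, 121.2 and 7.26 CPM in that order, and monocytes 115.2, 15.02, 492.2 (464.2 to 521.5) and 46.8 CPM. Both classes peaked at 3 dpi, where macrophages held 70.5% (69.6 to 71.4) of the UMIs and monocytes as a class had the higher level. The monocyte value of the ActD sham rested on 8 UMIs in 27 cells. At 3 dpi a monocyte cluster of 223 cells led by Thbs1, Vcan, F10, Chil3 and Dmkn reached 607.5 CPM, and the macrophage cluster with the most Vegfa had 455 CPM. The monocyte cluster of 84 cells led by Plac8 and Ly6c2 had 113.5 CPM, not above the 121.2 CPM of macrophages.

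For Osm, microglia had 102.9 CPM (98.6 to 107.2) in the standard sham, 7.53 CPM (6.29 to 8.94) in the ActD sham, 43.2 CPM (40.2 to 46.4) at 3 dpi and 8.29 CPM (7.51 to 9.13) at 14 dpi. The level was 13.7-fold (11.4 to 16.4) higher in the standard sham than in the ActD sham, and 5.74-fold (4.76 to 6.97) higher at 3 dpi. The IEG level of microglia was higher in the same libraries, and its part in these values was not tested. Neutrophils led with 53.3% in the ActD sham and 57.2% (55.3 to 59.1) at 14 dpi. At 14 dpi the neutrophils of a cluster led by Cxcl2 and Retnlg had 409.2 CPM, whereas those of a cluster led by the granule genes Camp and Ngp had 7.26 CPM. The cells named mast cells or basophils had 1547 CPM in the standard sham (22 cells, of which 3 held at least 50% of the UMIs) and 382.5 CPM at 14 dpi (29 cells).

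Hbegf (chromosome 18, 36504927 to 36515805, minus strand), which encodes the heparin-binding ligand of the EGF receptor, had fewer UMIs in the libraries made with ActD than in the standard sham. The part of ActD in this was not tested. It had 954 UMIs in the standard sham, 69 in the ActD sham, 325 at 3 dpi and 276 at 14 dpi. Microglia had 37.6 CPM (35.02 to 40.2), 2.38 CPM (1.70 to 3.22), 0.633 CPM (0.316 to 1.13) and 4.19 CPM (3.64 to 4.79) in that order. They were 15.8-fold (11.6 to 22.2) higher in the standard sham than in the ActD sham and held 85.4% and 59.4% of the UMIs in these libraries and 76.1% at 14 dpi. Macrophages of the standard sham had 49.7 CPM. In the ActD sham the vascular, stromal or glial class held 30.4%, with 21 UMIs in 24 cells, at 70.8 CPM. The microglial value of the ActD sham rested on 41 UMIs, of which 19 were in 1 cell. The other microglia thus held 22 UMIs, close to the 21 of the vascular, stromal or glial class. That cell lay in a cluster of 24 cells with Ccl4, Ccl3, Lpl and Ctsd among its leading genes. Without that cell the 14 dpi level was 3.28-fold (2.11 to 5.34) higher than in the ActD sham, and without the cluster 3.22-fold, against 1.76-fold (1.26 to 2.53) with all cells. With the cell of the most UMIs left out of both libraries it was 2.87-fold higher. At 3 dpi microglia held 3.39% and the vascular, stromal or glial class 69.2% (63.9 to 74.2), at 206.6 CPM (180.5 to 235.5). Those UMIs came from few cells, since 17 of the 48 cells had one and 2 of them, with 68 and 56 UMIs, held at least 50%.

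Areg (chromosome 5, 91139599 to 91148432, plus strand), a ligand of the EGF receptor made by several immune cells during repair, had most of its UMIs in the 3 dpi library. It had 203 UMIs in the standard sham, 0 in the ActD sham, 1034 at 3 dpi and 46 at 14 dpi. Over all cells it was at least 95.9-fold higher at 3 dpi and at least 4.16-fold higher at 14 dpi than in the ActD sham, taking 3 counts per library as the floor, and it was 23.1-fold (17.2 to 31.7) lower at 14 dpi than at 3 dpi. Macrophages held 84.6% (82.3 to 86.8) of the 3 dpi UMIs at 15.3 CPM (14.3 to 16.3), and monocytes had 27.8 CPM (21.4 to 35.4). The cluster of 223 monocytes led by Thbs1 and Vcan held 65 of these UMIs, and that of 84 cells led by Plac8 and Ly6c2 held 0. The macrophage level was higher in the standard sham, at 36.7 CPM (25.5 to 51.3) from 34 UMIs. The macrophage UMIs lay in 182 of 3965 cells, of which 26 held at least 50%. Clusters of 273 and 809 macrophages had 44.4 CPM and 40.8 CPM. At 14 dpi no UMI was found in macrophages, which was at least 14.7-fold lower than at 3 dpi, and T cells held 78.3% (63.6 to 89.1) at 8.86 CPM (6.21 to 12.3). Those 36 UMIs came from 15 cells, of which 3 held at least 50%, and a cluster of 138 T cells with Trdc, a constant segment of the gamma-delta receptor, among its leading genes had 33.3 CPM. In the standard sham the 21.2% of monocytes was not separated from the 18.7% of microglia, 16.8% of macrophages and 16.3% of T cells, and 28 of the 33 T cell UMIs were in 1 cell.

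Gdf15 (chromosome 8, 70629393 to 70632456, minus strand), the stress-induced TGF-beta relative, was a microglial gene in the standard sham and a macrophage gene at 3 dpi. Microglia had 103.6 CPM (99.4 to 108.0) in the standard sham, 2.03 CPM (1.41 to 2.82) in the ActD sham, 8.11 CPM (6.83 to 9.56) at 3 dpi and 4.56 CPM (3.99 to 5.20) at 14 dpi. The standard sham was thus 51.1-fold (36.6 to 73.6) above the ActD sham, the largest ratio of the 2 sham libraries among the 8 factors with a UMI in both, and the IEG level differed in the same direction, which was not tested as a cause. Macrophages had 75.7 CPM (59.0 to 95.6), 0.624 CPM (0.0158 to 3.48), 34.0 CPM (32.5 to 35.6) and 50.8 CPM (42.9 to 59.7). They held 87.9% (86.5 to 89.2) of the UMIs at 3 dpi. A pair of macrophage clusters of that library had more, with 117 CPM in 273 cells led by Isg15, Prdx6, Thbs1, Prdx1 and Sqstm1, among them genes of the oxidative stress response, and 53.9 CPM in 1106 cells led by Gpnmb, Fabp5, Lyz2, Ms4a7 and Lgals3.

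Low counts limit the other Gdf15 values. In the ActD sham, 33 of the 35 microglial UMIs were in 1 cell. The microglial ratios to the ActD sham of 4.0 (2.75 to 5.97) at 3 dpi and 2.25 (1.57 to 3.31) at 14 dpi therefore rested on that cell. With the cell of the most UMIs left out of each library, the ActD sham kept 2 microglial UMIs, or 0.116 CPM (0.0141 to 0.419), against 7.49 CPM (6.26 to 8.90) at 3 dpi, 3.75 CPM (3.23 to 4.33) at 14 dpi and 100.7 CPM (96.6 to 105.1) in the standard sham. At 14 dpi microglia held 48.2% (43.6 to 52.8) of the UMIs, macrophages 31.0% and neutrophils 17.1%, but 4 of the 61 microglia with a UMI held at least 50% of the microglial count and 56 of the 147 macrophage UMIs were in 1 cell. With a looser filter, a stricter filter, the Itgam and lymphoid marker cells kept, or Seurat integration, the microglial ratio of 14 dpi to the ActD sham was instead 0.698 to 0.772 and that of 14 dpi to 3 dpi 0.123 to 0.184, against 0.563 as reported. The ratios to the ActD sham in these settings were not computed without the cell of 33 UMIs. In these settings macrophages were the main source at 14 dpi, with 61.0% to 67.2%.

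The promoters of Areg, Vegfa and Gdf15 are shown as examples of factors that were at least 2-fold higher at 3 dpi than in the ActD sham, in microglia and over all cells. Igf1 was too and is not printed, and Gdf15 was higher still in the standard sham. The Areg ratios are bounds, since it had 0 UMIs in the ActD sham. The 250 bases before the outermost start of each gene, on its own strand, are from RefSeq (GRCm38.p6), in lower case with motif matches in capitals.
Areg, chr5:91139349-91139598, plus strand: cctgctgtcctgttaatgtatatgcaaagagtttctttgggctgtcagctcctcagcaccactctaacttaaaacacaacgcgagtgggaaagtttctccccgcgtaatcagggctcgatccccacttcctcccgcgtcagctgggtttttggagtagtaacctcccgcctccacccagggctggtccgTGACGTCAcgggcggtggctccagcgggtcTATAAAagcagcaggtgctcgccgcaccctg
Vegfa, chr17:46032378-46032627, minus strand: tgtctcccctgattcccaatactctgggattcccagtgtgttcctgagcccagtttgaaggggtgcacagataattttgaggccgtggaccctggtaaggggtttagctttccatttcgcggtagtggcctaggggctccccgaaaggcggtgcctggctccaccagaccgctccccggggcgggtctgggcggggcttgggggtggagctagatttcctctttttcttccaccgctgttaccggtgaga
Gdf15, chr8:70632457-70632706, minus strand: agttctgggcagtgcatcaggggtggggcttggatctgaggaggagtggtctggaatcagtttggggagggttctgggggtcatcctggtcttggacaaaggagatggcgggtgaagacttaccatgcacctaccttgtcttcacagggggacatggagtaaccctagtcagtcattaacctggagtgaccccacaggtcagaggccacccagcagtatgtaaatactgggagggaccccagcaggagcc

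The motifs searched on both strands in the 250 bases before each start were the cyclic AMP response element TGACGTCA, the AP-1 site TGANTCA, the core of the hypoxia response element ACGTG and the TATA box TATAAA. They were found in 1.55%, 6.75%, 16.6% and 12.4% of the 32851 windows of the same length in the table. The Areg promoter held the cyclic AMP response element at -61 to -54 and the TATA box at -31 to -26, and the printed windows of Vegfa and Gdf15 held no match. The hypoxia core was matched in second starts of Vegfa and Gdf15 and in Bdnf, and the AP-1 site in Igf1 and Bdnf. A match describes the letters and shows no binding. The table held 16 promoters of 7 of the factors, and none for Pdgfb, Osm or Hbegf.

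Grn (chromosome 11, 102430315 to 102437048, plus strand), which encodes the lysosomal glycoprotein progranulin, had 27263 to 138787 UMIs per library. Its microglial level was 1037 CPM (1024 to 1051) in the standard sham, 1360 CPM (1343 to 1378) in the ActD sham, 1653 CPM (1634 to 1672) at 3 dpi and 1772 CPM (1761 to 1784) at 14 dpi. The injured libraries were above the ActD sham by 1.22-fold (1.19 to 1.24) and 1.30-fold (1.28 to 1.32), intervals that the high counts made narrow. Macrophages had 592, 1019, 1729 and 1159 CPM and held 71.4% of the UMIs at 3 dpi, when microglia held 20.7%. Microglia held 80.7% to 87.6% in the other libraries. Lymphocytes and neutrophils also had more at 3 dpi. B cells had 443.7 CPM against 79.2 CPM in the ActD sham (5.60-fold, 3.89 to 8.27), T cells 422.3 against 40.1 CPM, and neutrophils 709 against 187 CPM (3.80-fold, 3.41 to 4.24). The T cell value of the ActD sham rested on 9 UMIs in 26 cells. Thinned to 1000 UMIs, 38.5% of B cells had a Grn UMI at 3 dpi and 7.81% in the ActD sham, against 79.8% and 72.5% of microglia. Before thinning the shares were 65.9% and 26.6% of B cells and 99.9% and 98.5% of microglia. How much of the lymphocyte and neutrophil Grn at 3 dpi was free RNA was not tested.

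Bdnf (chromosome 2, 109674700 to 109727007, plus strand), the neurotrophin, was hardly detected in any library. It had 1 UMI in the standard sham, 0 in the ActD sham, 17 at 3 dpi and 1 at 14 dpi. Of the 17 UMIs at 3 dpi, 9 were in macrophages (0.157 CPM), 3 in the vascular, stromal or glial class and 2 in microglia. At this depth no main source could be given, and the count of 0 in the ActD sham allows up to 0.117 CPM.

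**Figure D3:**
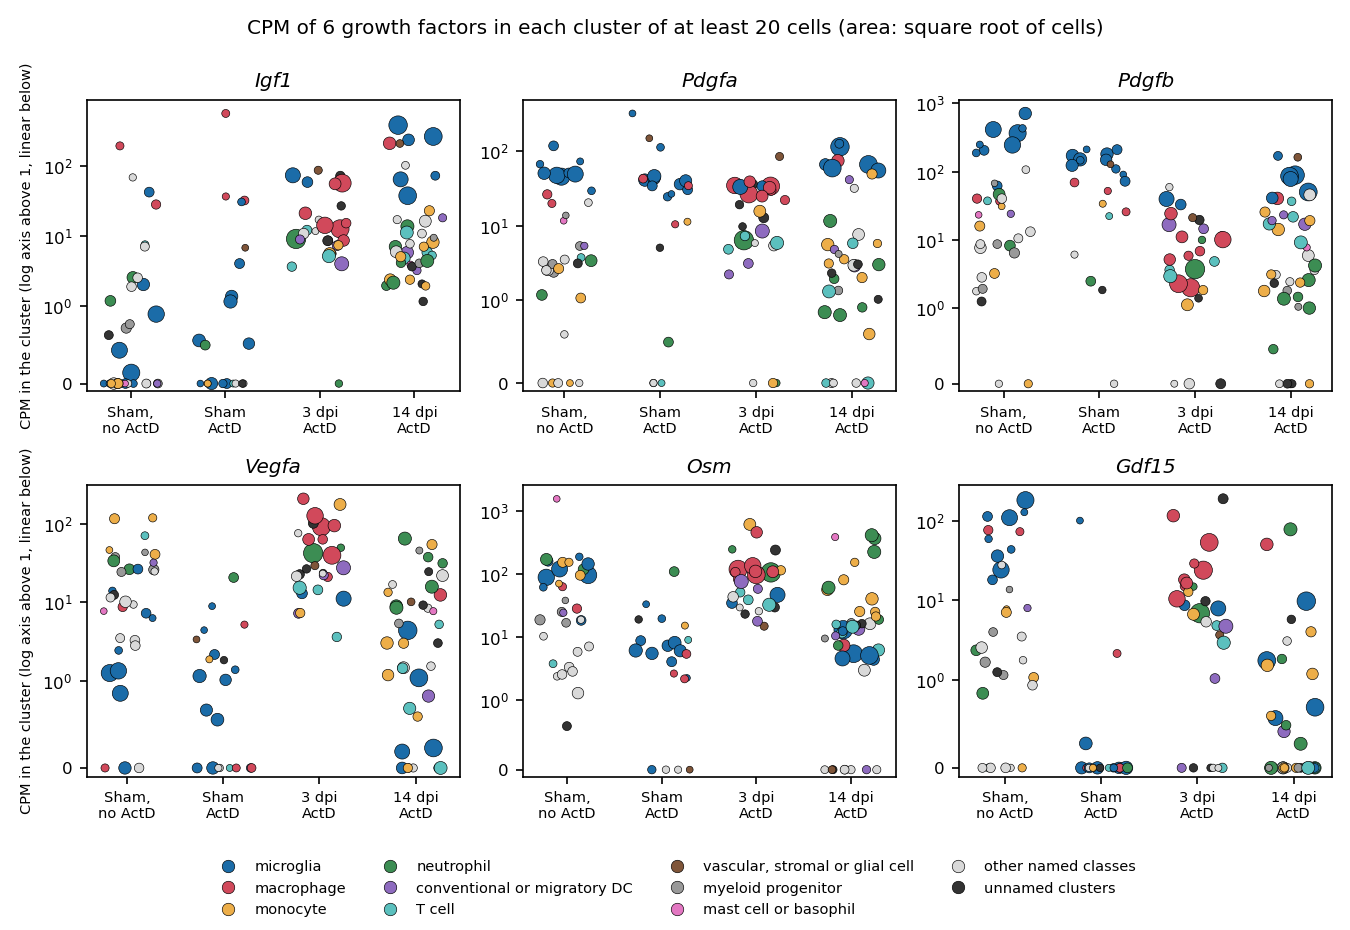
Level of 6 factors (CPM, log axis above 1 and linear below) in each cluster of at least 20 cells, with 1 point per cluster, coloured by class, in columns by library. Within a class the clusters differ, as for Igf1 in the microglia of 14 dpi (37.4 to 381 CPM in the 3 clusters named in the text) and Osm in its neutrophils (7.26 to 409.2 CPM in the 2 named).

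The changes of all the factors were then compared between libraries, first within microglia. At 3 dpi 5 of the 9 factors with at least 20 UMIs in the pair were at least 2-fold higher than in the ActD sham, namely Igf1, Vegfa, Osm, Areg and Gdf15, against 14.1% of all genes. Pdgfb and Hbegf were at least 2-fold lower, against 33.2%. Areg had 22 microglial UMIs at 3 dpi and 38 in the standard sham, against 0 in the ActD sham. It thus passed the filter only through the library where it was high, and could then only be called higher. Its microglial ratios to the ActD sham are bounds. With the 1 cell of the most Hbegf UMIs left out of the ActD sham, Hbegf was 2.02-fold (0.938 to 4.61) lower. That did not differ from no change beyond counting error. At 14 dpi 3 of 8 factors were higher, namely Igf1, Vegfa and Gdf15, against 6.31%, and Pdgfb alone was lower, against 20.4%. Only Igf1 was at least 2-fold higher at 14 dpi with a looser or stricter filter, the Itgam and lymphoid marker cells kept, or Seurat integration, where Vegfa was 1.69-fold to 1.79-fold higher and Gdf15 was lower. The Gdf15 ratio in these settings was not computed without the 1 ActD sham cell with the most Gdf15 UMIs. From 3 to 14 dpi, Igf1, Pdgfa, Pdgfb and Hbegf were higher (4 of 9, against 11.5%) and Vegfa, Osm and Areg lower (3 of 9, against 14.6%). The Hbegf ratio of 6.61 rested on 11 UMIs at 3 dpi and was 1.03 when cells were named one by one, and its ratio at 3 dpi to the ActD sham was then 1.53 in place of 0.266. The standard sham was above the ActD sham for 6 of 9 factors, namely Pdgfb, Vegfa, Osm, Hbegf, Areg and Gdf15, against 7.35%, and no factor was at least 2-fold lower, against 23.2%. Igf1 joined them, at 4.26-fold, without the cluster of 39 cells led by Prss34 and Mcpt8, and at 3.94-fold with the Itgam and lymphoid marker cells kept. The 4.26-fold value left a cluster out of the ActD sham only, where 12 UMIs remained. In the standard sham, 57 of the 67 microglial Igf1 UMIs were in the cluster of 102 cells led by Gpr84 and Spp1, which was kept. The ratio without both clusters was not computed.

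Over all cells kept, where the make-up of the library counts too, the same 5 factors were at least 2-fold higher at 3 dpi than in the ActD sham (5 of 9, against 10.5% of all genes) and Pdgfb was lower (1 of 9, against 34.3%). Igf1, Vegfa, Areg and Gdf15 were higher at 14 dpi (4 of 9, against 6.80%) and Pdgfb lower (1 of 9, against 16.5%). From 3 to 14 dpi Igf1 and Pdgfb were higher (2 of 9, against 17.9%) and Vegfa, Osm, Areg and Gdf15 lower (4 of 9, against 11.0%). The standard sham was above the ActD sham for Vegfa, Osm, Hbegf, Areg and Gdf15 (5 of 9, against 9.66%) and below it for Igf1 (1 of 9, against 20.7%). The comparisons with the ActD sham share that library, so their counts are not independent of each other. Areg had 0 UMIs there, so it entered them only through the other library of the pair and its ratios are bounds.

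The middle of all genes was itself shifted between libraries. In microglia the median log2 ratio of genes with at least 200 UMIs was -0.54 at 3 dpi and -0.53 at 14 dpi over the ActD sham, 0.04 at 14 dpi over 3 dpi, and -0.53 in the standard sham over the ActD sham. Relative to that median, Igf1 was 5.68 higher at 3 dpi and 7.49 higher at 14 dpi on the log2 scale, Vegfa 4.02 and 1.55, and Osm 3.06 and 0.67. Pdgfb was at -1.48 and -0.49, so that it stood below the median gene at both times, and Grn at 0.82 and 0.91. Pdgfa was at -0.01 at 3 dpi, next to the median gene, and at 1.31 at 14 dpi, and Hbegf at -1.37 and 1.35. Scaled by TMM, the count of factors at least 2-fold higher in microglia at 14 dpi was 5 and that of lower ones 0.

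**Figure D4:**
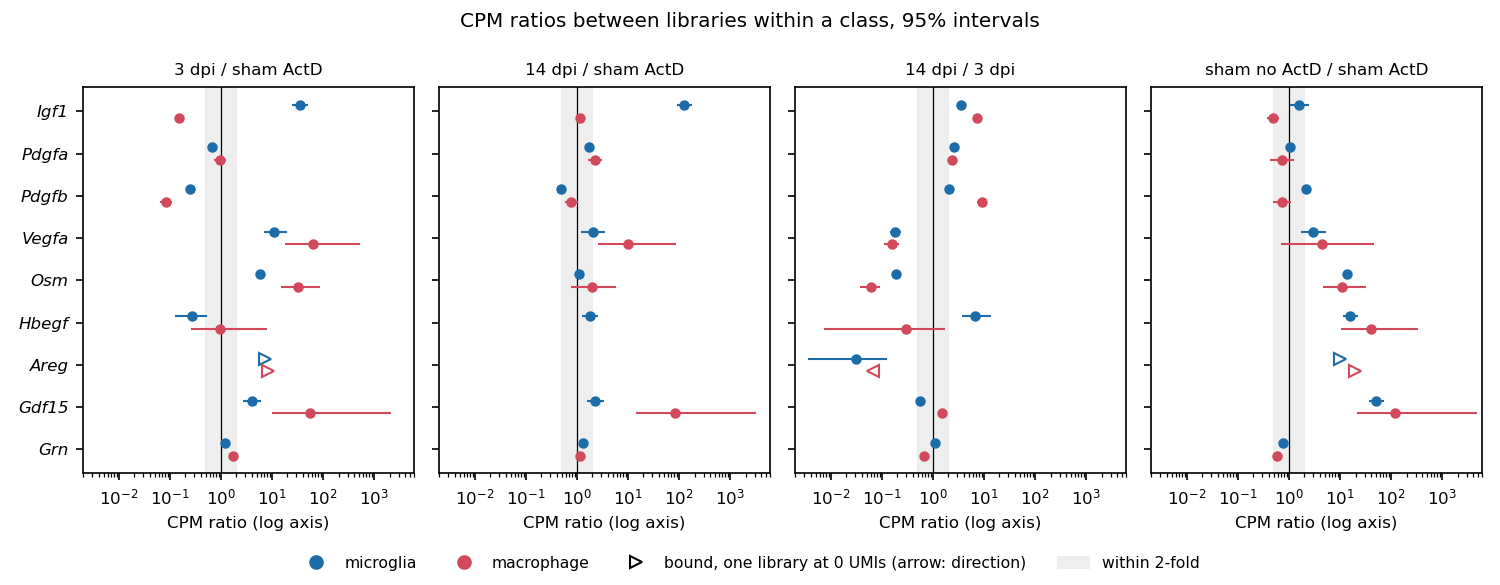
Ratio of the CPM between pairs of libraries (log axis) for each factor in microglia and in macrophages, with horizontal bars for the exact 95% interval, open triangles for bounds where 1 library had no UMI, and a grey band within 2-fold. Igf1 in microglia lies at 35.3 and 124.9 over the ActD sham, and Vegfa, Osm and Areg of both classes lie to the right of the band at 3 dpi over the ActD sham and to its left at 14 dpi over 3 dpi.

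Of the 20 genes listed as receptors of these factors, 11 had at least 20 UMIs in the standard sham, 13 in the ActD sham, 17 at 3 dpi and 16 at 14 dpi. Receptors of stromal cells were rare among these CD45+ cells. Pdgfra had 146 UMIs at 3 dpi, 85.6% of them in the vascular, stromal or glial class, and Pdgfrb had 183 UMIs in the ActD sham, 75.4% in that class. The oncostatin receptor Osmr had 50 UMIs at 3 dpi and 66 at 14 dpi, with 82.0% and 93.9% in that class. Egfr, the receptor of Hbegf and Areg, had 10 to 25 UMIs in any library, Erbb2 0 to 12 and Erbb4 1 to 13. Gfral, the receptor of Gdf15 known from the hindbrain, had no UMI. The Bdnf receptor Ntrk2 had 112 UMIs at 3 dpi, 69.6% of them in the same class.

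Other receptors were on the immune cells themselves. Igf1r had its largest share in neutrophils at 14 dpi (40.5%, 117.0 CPM). In microglia of the ActD sham, which differ from them in both class and library, it was at 32.03 CPM. The VEGF co-receptors Nrp1 and Nrp2 were at 152.6 CPM and 136.8 CPM in macrophages at 3 dpi, and at 212.7 CPM and 84.9 CPM in microglia at 14 dpi. Flt1, a receptor of Vegfa, had 582 UMIs in the ActD sham, 71.7% of them in the vascular, stromal or glial class, and 3635 UMIs at 14 dpi, 63.1% in microglia at 45.7 CPM. The shared signal chains Lifr and Il6st of the IL-6 family were at 72.2 CPM and 169.5 CPM in microglia of the ActD sham, and at 18.7 CPM and 76.3 CPM at 14 dpi. Sort1, which takes up progranulin, was at 108.3 CPM and 47.1 CPM in the same libraries. Of the 9 receptors that could be compared in microglia, 1 was at least 2-fold higher and 7 lower at 3 dpi than in the ActD sham (against 14.1% and 33.2% of all genes), and 2 were higher and 3 lower at 14 dpi (against 6.31% and 20.4%).

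Binding proteins and processing enzymes of the factors had their own sources. Of 8 IGF binding proteins, Igfbp2 was in macrophages in the ActD sham (317.7 CPM, 99.2% of its UMIs). Igfbp7 was in the vascular, stromal or glial class in all 3 ActD libraries, with 78.4% to 91.6% of its UMIs. Of 11 genes of shedding and processing, 9 had at least 20 UMIs in every library. Furin, a convertase of growth factor precursors, was at 186.2 CPM in macrophages at 3 dpi. It was at 36.7 CPM in microglia of the ActD sham, which differ from them in both class and library. Adam17, the sheddase of Hbegf and Areg, was at 66.9 CPM in the macrophages at 3 dpi. Psap, which encodes a partner of progranulin in lysosomes, was at 4975 CPM in macrophages at 3 dpi. Slpi, which protects progranulin from cleavage, was held by neutrophils in both sham libraries and at 14 dpi, at 2031, 926 and 1242 CPM. In microglia 2 of 9 such genes, and 1 of 3 IGF binding proteins, were at least 2-fold higher at 3 dpi than in the ActD sham (against 14.1% of all genes), and 1 of each list was lower (against 33.2%).

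The genes with the most similar pattern were searched over 27 points, each a class of at least 50 cells in 1 library, which share libraries and depth within a library. Pearson's r of the log2 CPM was highest for Igf1 with Apoe, which encodes the main apolipoprotein of glia, at 0.930. Grn had 0.963 with Tmem86a, 0.942 with the cathepsin Ctsb and 0.936 with the lysosomal marker Cd68. Pdgfa had 0.932 with Gm5086 and 0.923 with the integrin chain Itgb5, and Pdgfb 0.887 with Nbea. For Vegfa the nearest genes were F10 with 0.852, the lectin receptor Clec4e with 0.841 and Thbs1 with 0.838, and for Osm the AP-1 member Fosl2 with 0.902, Nfil3 with 0.900 and the IEG Ier3 with 0.873. Gdf15 had 0.776 with the stress factor Atf3. The likeness was lower for Hbegf, at 0.788 with Dusp8, and for Areg, at 0.720 with 4930589L23Rik.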

How the data were processed

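Single-cell 3′ libraries of sorted CD45+ spinal cord cells were analysed, 1 for each of 4 groups. The authors deposited sparse matrices of UMI counts, by gene and barcode, that had not been normalized. Per the submitters' processing notes, they were made with Cell Ranger and mm10, and the headers carry software version 3.0.1 (standard sham, 3 dpi) or 3.1.0 (ActD sham, 14 dpi). The files held 6827, 2439, 10763 and 11631 barcodes with 60412094, 27447471, 125270696 and 129935880 UMIs (standard sham, ActD sham, 3 dpi, 14 dpi). Groups came from the labels, with the dissociation of 3 libraries from the series description.

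Cells with fewer than 600 genes or more than 10% mitochondrial UMIs were dropped, cells with Itgam and a lymphoid marker were removed, and doublets were removed by a simulated-neighbour score at 0.8% per 1000 cells (291, 42, 774 and 931 cells; DoubletFinder was not used). Each library was clustered on 2000 variable genes without the factors and list genes (50 components, k 20, resolution 1.2; Python 3.11.15, scikit-learn 1.9.0, igraph 0.11.9). A cluster of at least 20 cells was named by the class with the highest marker levels, if 3 markers were detected in 25% of its cells and its 10 leading genes did not go against the name. The thresholds were set after the clusters were seen. The factors, lists and markers were chosen with earlier results of these data known. Intervals came from scipy 1.17.1. A library of 1 per group allowed no test. The number of UMIs limits the precision, and a count of 0 was read as up to 3 counts.

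All 10 factors were named in every library. List genes could be named if they were receptors, or had at least 200 UMIs in a library and a main source with at least 50% of them. Not all genes that met this rule are named. For each factor, the 3 most similar genes among those with at least 500 UMIs were found, and for clusters the 5 leading genes. Steps that count or compare genes were tested on simulated Poisson counts. These lack the clumping of UMIs in single cells described above, so they could not test the intervals for it. Alternatives were other filters, resolutions and naming, doublets kept, Seurat 5.3.0 integration in R 4.3.3, TMM scaling in edgeR 4.0.16, equal weight of cells, and free RNA subtracted. Added after seeing the data were leaving out the 24-cell or 39-cell cluster of ActD sham microglia or the cell with the most UMIs, and monocytes and macrophages as 1 class. Some genes are not reported here, and sequencing reads were not used.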

Additional observations from a re-analysis of the deposited data

Results flagged for a closer look

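For 10 combinations of a factor and a pair of libraries, classes with at least 100 cells in both libraries moved in opposite directions. None of these differences could be tested with 1 library per group. The CPM ratio of Igf1 at 3 dpi over the ActD sham was 35.3 in microglia and 0.153 in macrophages, which were other clusters at 3 dpi than in the sham. It was 95.7 without the microglial cluster of 39 cells and 0.286 without the 1 macrophage with the most UMIs in the ActD sham. At 14 dpi over 3 dpi it was 3.54 in microglia and 0.517 in neutrophils, and in the standard sham over the ActD sham 1.57 in microglia and 0.486 in macrophages, or 0.908 (0.688 to 1.19) without that macrophage, which held 141 of the 299 ActD sham UMIs. Pdgfa was at 0.681 in microglia and 12.2 in neutrophils at 3 dpi over the ActD sham, the latter from 24 UMIs against 1 (interval 1.99 to 503). At 14 dpi over 3 dpi it was at 2.51 and 0.339 in these classes.

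In the same pair of libraries, Pdgfb was at 2.01 in microglia and 0.407 in neutrophils, Osm at 0.192 in microglia and 1.13 in neutrophils, and Gdf15 at 0.563 in microglia and 1.49 in macrophages. Grn was at 1.30 in microglia and 0.771 in neutrophils at 14 dpi over the ActD sham. At 14 dpi over 3 dpi it was at 1.07 in microglia, 0.671 in macrophages and 0.203 in neutrophils. The macrophage class was made up differently at 3 and 14 dpi. The neutrophils of 3 dpi entered 6 of these comparisons, and their median depth of 2344 UMIs and their S100a8 level of 25119 CPM, against 162235 CPM in the ActD sham, stood beside them. The part of these in the ratios was not tested.

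A signal outside the named classes was seen at 3 dpi. An unnamed cluster of 110 cells with a median of 2057 UMIs, led by Mdm2, Slpi, Il1rn and Slc26a11, had 45 Gdf15 UMIs, or 191.2 CPM, against 34.0 CPM in the macrophages of that library.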

How the results depend on the processing

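No paired analysis was possible because each group held 1 library, and no replicate could be left out. Of the recomputed counts, 230 stayed within 1.5 times the reported count and 9 did not. Of the recomputed shares, 312 stayed within the interval of the reported share and 211 did not, and of the ratios 563 did, 135 did not and 5 turned direction. The count of factors at least 2-fold lower in microglia at 3 dpi than in the ActD sham was 1 when cells were named one by one, with Hbegf at 0.62 on the log2 scale in place of a lower level. The count of factors higher in microglia at 14 dpi than in the ActD sham was 1 with a looser filter, a stricter filter, the Itgam and lymphoid marker cells kept, or Seurat integration, and 5 with TMM scaling. In these first 4 settings Vegfa was 1.69-fold to 1.79-fold higher and Gdf15 in microglia turned to -0.41, -0.37, -0.52 and -0.47 on the log2 scale. These Gdf15 values were not computed without the 1 ActD sham cell with the most Gdf15 UMIs. The count of lower factors in that pair was 0 with Seurat integration and with TMM scaling, and 0 over all cells with TMM scaling. The causes were not tested.

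The main source changed for 4 of 35 pairs of factor and library when cells were named one by one, for 4 with the looser and 4 with the stricter filter, for 3 of 36 with the Itgam and lymphoid marker cells kept, for 2 with Seurat integration, 2 with equal weight of cells, 1 at a resolution of 2 and 1 without the cells of the most UMIs, and for 0 in the other settings. Igf1 in the standard sham was led by microglia with 31.8% when the Itgam and lymphoid marker cells were kept, and Gdf15 at 14 dpi by neutrophils with 44.7% at equal weight of cells. Igf1 in the ActD sham was led by the vascular, stromal or glial class with 44.4%, 45.0% and 50.3% (cells named one by one, looser filter, Seurat), Gdf15 at 14 dpi by macrophages with 61.0% to 67.2% in 4 settings, and Hbegf at 3 dpi by macrophages with 33.8% (cells named one by one) and 34.7% (stricter filter). Vegfa in the standard sham was led by myeloid progenitors when cells were named one by one and with the looser or stricter filter. Areg in the standard sham changed source too, to microglia, NK cells or T cells by setting. Few UMIs limit Hbegf, Gdf15 and Areg in the ActD sham (69, 36 and 0 UMIs). Class sizes moved as well. Microglia at 3 dpi numbered 1400 when cells were named one by one, 1037 with Seurat integration and 384 with the stricter filter, against 713 as reported. Macrophages at 14 dpi numbered 99 when cells were named one by one and 358 with Seurat integration, against 275 as reported.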

Other observations

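Related growth factors outside the 10 divided between microglia and other classes. Tgfa, a further ligand of the EGF receptor, was led by microglia in every library, with 68.8% to 95.4% of its UMIs, at 35.4 CPM in the standard sham, 45.5 CPM in the ActD sham, 12.3 CPM at 3 dpi and 25.6 CPM at 14 dpi. Fgf2, a mitogen of astrocytes and endothelial cells, was led by microglia too, and had 5.50 CPM there in the ActD sham and 12.4 CPM at 14 dpi. Hgf, a trophic and angiogenic factor, was a macrophage gene at 3 dpi (17.98 CPM, 81.9% of its UMIs). Lif, an IL-6 family member like Osm, had no UMI in the ActD sham and 390 at 3 dpi, 66.2% of them in macrophages.

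Of the 25 related factors, 12 had at least 20 UMIs in the standard sham, 13 in the ActD sham, 16 at 3 dpi and 13 at 14 dpi. In microglia 1 of 11 was at least 2-fold higher at 3 dpi than in the ActD sham (against 14.1% of all genes) and 7 were lower (against 33.2%), among them Tgfa, Tgfb1 and Clcf1. Vegfb, unlike Vegfa, was led by microglia at 14 dpi (95.5 CPM, 84.0%). Il6 was led by microglia in the ActD sham (16.6 CPM, 96.3%) and by the cells named mast cells or basophils in the standard sham (1288 CPM in 22 cells).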
